A study of Lytechinus variegatus with 23 samples.

Results

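The polyketide synthase genes Pks1 and Pks2 and the pigment cell regulator gene Gcm were followed in intact Lytechinus variegatus sea urchin embryos reared without or with alizarin. The count table pairs its gene IDs with symbols of matched genes of another urchin, Strongylocentrotus purpuratus, and the members are the IDs named Pks1 (L_var_23510), Pks2 (L_var_00620) and every ID whose symbol starts with Gcm, which was 1 (L_var_24790). They are 3 of the 27231 genes with usable counts, each symbol stands on 1 ID, and 3 of 3 passed the filter on low counts. Each treatment was sampled 12, 18, 24 and 30 hours after fertilisation (hpf). Groups had libraries A, B and C, except that alizarin at 18 hpf had only B and C, so there were 23. The groups share everything the labels name except treatment and age. The labels name no strain, cross, dose, start of exposure or vehicle, and they do not say whether replicates came from separate cultures, so p-values measure only the spread between these libraries.

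In sea urchins, pigment cells arise from the non-skeletogenic mesoderm, where Delta and Notch signalling switches on Gcm, a transcription factor needed for the pigment cell fate. Polyketide synthases build long carbon chains from malonyl units, and Pks1 makes the scaffold of the red naphthoquinone pigment echinochrome: S. purpuratus larvae without it are albino. Pks2 is a separate gene, whose transcript has been described in skeletogenic cells of S. purpuratus and which is needed for spicules in the urchin Hemicentrotus pulcherrimus. Alizarin red binds calcium and serves as a stain for mineralised skeleton.

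Levels below are CPM, counts scaled to a common library total with TMM, and differences are given as log2 fold changes of alizarin over control, each with a standard error (SE). Each library held between 8194215 and 11730004 counts. The first principal component of log2 CPM (46.5% of the variance) followed age, and alizarin libraries of 24 hpf lay at 16.4 to 28.9 on it, with controls of 18 hpf at -22.4 to 20.3 and of 24 hpf at 59.3 to 81.2. Control replicate A of 12 hpf stood apart from B and C, with 2.45% of its counts in ribosomal protein genes against 8.23% and 8.32%. Alizarin libraries A, B and C of 12 hpf had 2.05%, 2.21% and 3.92%, so control A was nearer to them. On the first component control A lay at -145, these alizarin libraries at -152 to -132, and controls B and C at -114 and -97.2. Fits without control A therefore keep only the 12 hpf controls that lay further from the treated libraries. Control replicate C of 18 hpf (14.4% against 9.14% and 8.29%) and alizarin replicate C of 24 hpf (16.8% against 10.2% and 11.0%) also stood apart from their groups. Because RNA came from whole embryos, fewer cells of a type and less RNA per cell cannot be told apart.

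Gcm and Pks1 transcripts were lower in alizarin embryos in the mean over the 4 times, each by about the same fold, and Pks2 transcript was higher. The mean log2 fold change was -1.03 for Gcm (SE 0.27, adjusted p = 0.0304), -1.05 for Pks1 (SE 0.21, adjusted p = 0.00643) and 1.98 for Pks2 (SE 0.25, adjusted p = 0.000121), from edgeR's quasi-likelihood F test with Benjamini-Hochberg adjustment over 18419 genes. Of all genes tested, 5.04% passed in this comparison, and all 3 members did. Pks2 had the 13th smallest p of all genes. The mean effects of Pks1 and Pks2 passed in each of 23 fits that left out 1 library (-1.18 to -0.90 and 1.87 to 2.21). That of Gcm ranged from -1.22 to -0.83 and missed the threshold in 7 of them, with adjusted p up to 0.103.

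**Figure D1:**
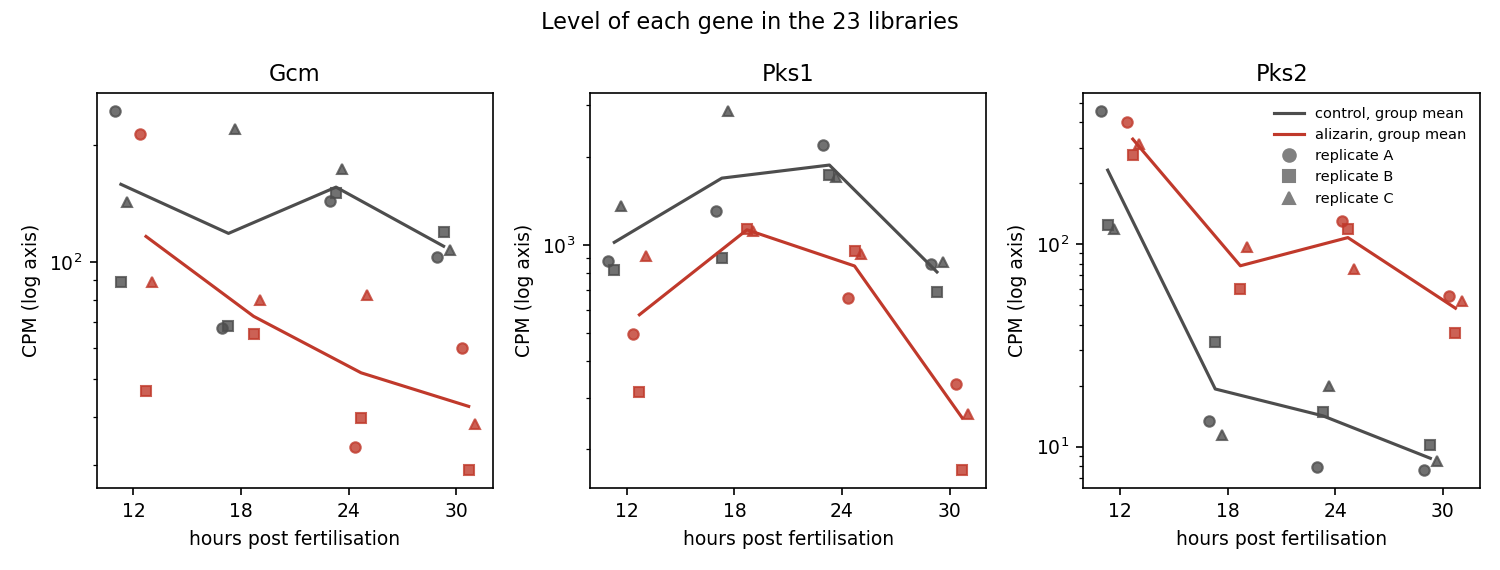
CPM of Gcm, Pks1 and Pks2 on a log axis against hours post fertilisation in the 23 libraries; marker shapes are replicates, grey is control, red is alizarin, and lines join the group means. At 30 hpf the 3 alizarin libraries lie below the 3 controls for Gcm and Pks1 and above them for Pks2.

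Gcm, the regulator, was read from 256 to 2705 counts per library. In controls A, B and C it stood at 244, 89.0 and 142 CPM at 12 hpf and at 67.5, 68.4 and 219 CPM at 18 hpf. At 24 hpf the controls had 143, 150.1 and 174 CPM and at 30 hpf 103, 119 and 107 CPM. Replicate A at 12 hpf and replicate C at 18 hpf, the libraries that stood apart, were the highest of their groups, while controls of 24 and 30 hpf were close to one another. Alizarin libraries A, B and C had 213, 46.6 and 88.9 CPM at 12 hpf, B and C had 65.3 and 79.6 CPM at 18 hpf, and A, B and C had 33.5, 39.6 and 82.4 CPM at 24 hpf. The alizarin levels at 30 hpf were 60.0, 29.2 and 38.4 CPM. Treated and control libraries overlapped at 12 and 18 hpf and did not overlap at 24 and 30 hpf. Groups did not overlap, in either direction, for 13.3%, 21.4%, 17.4% and 32.2% of all genes at 12, 18, 24 and 30 hpf.

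The Gcm effect was -0.45 at 12 hpf (SE 0.51) and -0.71 at 18 hpf (SE 0.58). It was -1.59 at 24 hpf (SE 0.52) and -1.37 at 30 hpf (SE 0.52), and no single time passed (adjusted p = 0.690, 0.974, 0.189 and 0.170 in order of age, edgeR). Leaving out control A at 12 hpf gave 0.011 for that age, and leaving out control C at 18 hpf gave 0.092 for that one. At 30 hpf, where the replicate letters paired the libraries, the fit of the 30 hpf libraries alone with the replicate block gave -1.40 (edgeR adjusted p = 0.000276), and without the block -1.34 (adjusted p = 0.0141), so the call there depended on the fit. The test of a difference between the times was not passed (adjusted p = 0.796), and 0.505% of all genes passed it.

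Pks1, the pigment polyketide synthase, had 1488 to 23946 counts per library. Control levels of A, B and C were 881, 818 and 1359.6 CPM at 12 hpf and 1308, 904 and 2859.5 CPM at 18 hpf. They were 2188, 1734 and 1699.7 CPM at 24 hpf and 856, 689 and 876 CPM at 30 hpf. The control group mean was highest at 24 hpf, with 1874 ± 273 CPM (SD, n = 3), and at 18 hpf replicate C was the highest of all 23 libraries. With alizarin, A, B and C had 497, 314 and 918 CPM at 12 hpf, and B and C had 1133 and 1118 CPM at 18 hpf. They had 656, 949.8 and 933 CPM at 24 hpf and 335, 169.6 and 263 CPM at 30 hpf. The groups overlapped at 12 and 18 hpf and were separate at 24 and 30 hpf, with every alizarin library below every control. At 24 and 30 hpf the groups did not overlap, in either direction, for 17.4% and 32.2% of all genes.

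Pks1 fell at 30 hpf by 1.66 on the log2 scale (SE 0.41, adjusted p = 0.0318, edgeR), a 3.15-fold lower level, where 3.32% of all genes passed. That call was lost without any 1 of the 6 libraries of 30 hpf, with adjusted p between 0.0541 and 0.147 and values from -1.90 to -1.43. The effect was -0.82 at 12 hpf (SE 0.40, adjusted p = 0.320), where 0.0977% of all genes passed. At 18 hpf it was -0.59 (SE 0.46, adjusted p = 0.973) and changed to 0.025 without control replicate C. At 24 hpf it was -1.15 (SE 0.41, adjusted p = 0.226), where 0.842% of all genes passed. No difference between the times was passed (adjusted p = 0.752).

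Pks2, the other polyketide synthase, had 71 to 5114 counts per library and the widest fold range of the 3 genes between group means. In controls A, B and C it stood at 452, 125 and 119 CPM at 12 hpf and at 13.4, 32.9 and 11.5 CPM at 18 hpf. Later control levels were 7.94, 14.8 and 19.8 CPM at 24 hpf and 7.66, 10.1 and 8.46 CPM at 30 hpf. Replicate A of 12 hpf, which stood apart, was more than 3 times as high as B and C, and every control of 18 hpf or later was below every control of 12 hpf. With alizarin, A, B and C had 403, 275 and 313 CPM at 12 hpf, and B and C had 59.8 and 96.5 CPM at 18 hpf. At 24 hpf the alizarin levels were 129.7, 118 and 74.9 CPM and at 30 hpf 55.6, 36.5 and 52.5 CPM. Alizarin libraries overlapped controls at 12 hpf and lay above all of them at 18, 24 and 30 hpf. Groups did not overlap, in either direction, for 21.4%, 17.4% and 32.2% of all genes at those 3 ages.

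Pks2 rose at 24 hpf by 2.92 on the log2 scale (SE 0.50, adjusted p = 0.00609, edgeR), a 7.59-fold higher level, and this call was kept without any 1 library (highest adjusted p 0.0444). It rose at 30 hpf by 2.46 (SE 0.50, adjusted p = 0.00977), a 5.50-fold higher level. Leaving out control A (adjusted p = 0.0618) or control C (adjusted p = 0.0512) ended the call at 30 hpf. At 18 hpf the difference was 2.02 (SE 0.52) and was not called, with an unadjusted p of 0.000848 and an adjusted p of 0.417. At that age 0% of all genes passed with edgeR, 1045 were under 0.05 before adjustment, and DESeq2 made 51 calls. At 12 hpf it was 0.51 (SE 0.46, adjusted p = 0.604), and 1.44 (adjusted p = 0.0544) without control replicate A. The edgeR test of a difference between the times gave Pks2 an unadjusted p of 0.00975, the 798th smallest of all genes. Its adjusted p was 0.225 (0.0622 with DESeq2), so after adjustment the larger values at later ages were not shown to differ from that at 12 hpf.

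**Figure D2:**
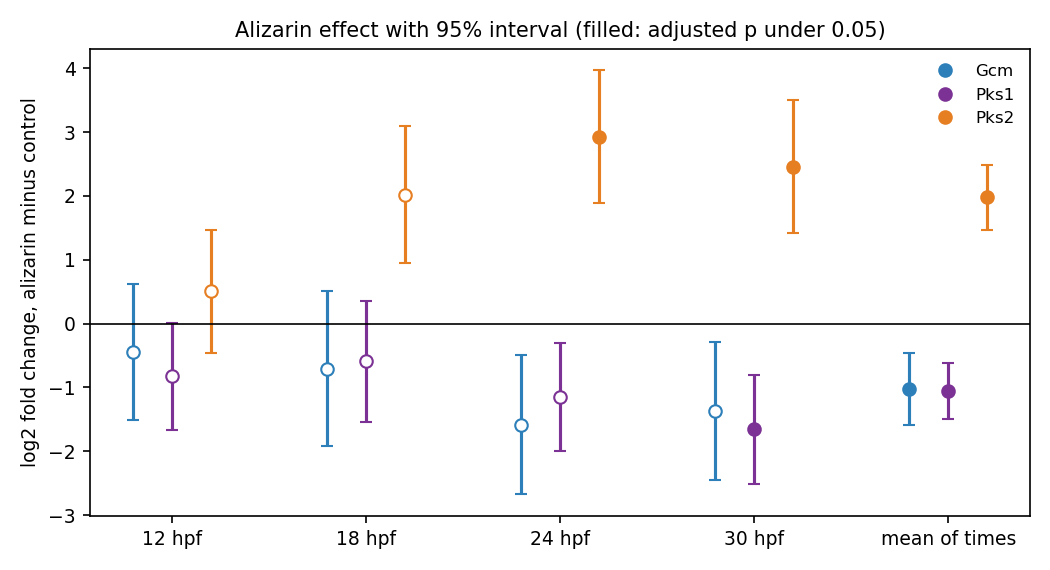
Log2 fold change, alizarin minus control, at each time and for the mean over times, with 95% intervals, for Gcm, Pks1 and Pks2; filled points have an adjusted p under 0.05. The intervals of Pks2 at 18, 24 and 30 hpf lie above 0 and those of Gcm and Pks1 at 24 and 30 hpf lie below 0.

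Counts of 2 genes within 1 library give a ratio that does not depend on how libraries are scaled. Pks1 had 27.5 to 274 times the counts of Pks2 in controls of 18 to 30 hpf and 4.64 to 18.9 times in alizarin libraries of those ages, with no overlap at any of the 3 ages. The ratio of Pks2 to Pks1 was 3.14 log2 units higher with alizarin when averaged over times, and by 1.71, 2.56, 4.14 and 4.14 at 12, 18, 24 and 30 hpf. An exact two-sided permutation test of treatment labels within times, over 80000 arrangements, gave p = 7.5e-05, and 0.0001125 after adjustment over 3 ratios. Pks2 to Gcm was also higher by 3.14 (exact permutation p = 5e-05, adjusted 0.0001125). Without the 12 hpf libraries, or without any single library, both differences had the same sign.

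The ratio of Pks1 to Gcm differed by 0.0002 between treatments in the mean over times (exact permutation p = 0.999). By age its difference was -0.32, 0.06, 0.54 and -0.28, with both signs, and it ranged from -0.115 to 0.153 when 1 library was left out. With age, Pks1 to Gcm had a control mean of 2.77 ± 0.79 on the log2 scale at 12 hpf, 3.90 ± 0.32 at 18 hpf, 3.58 ± 0.32 at 24 hpf and 2.87 ± 0.30 at 30 hpf (SD, n = 3). The alizarin means were 2.45 ± 1.10, 3.96 ± 0.21 (n = 2), 4.12 ± 0.56 and 2.60 ± 0.16 in the same order. In both arms the ratio was lowest at 12 and 30 hpf.

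**Figure D3:**
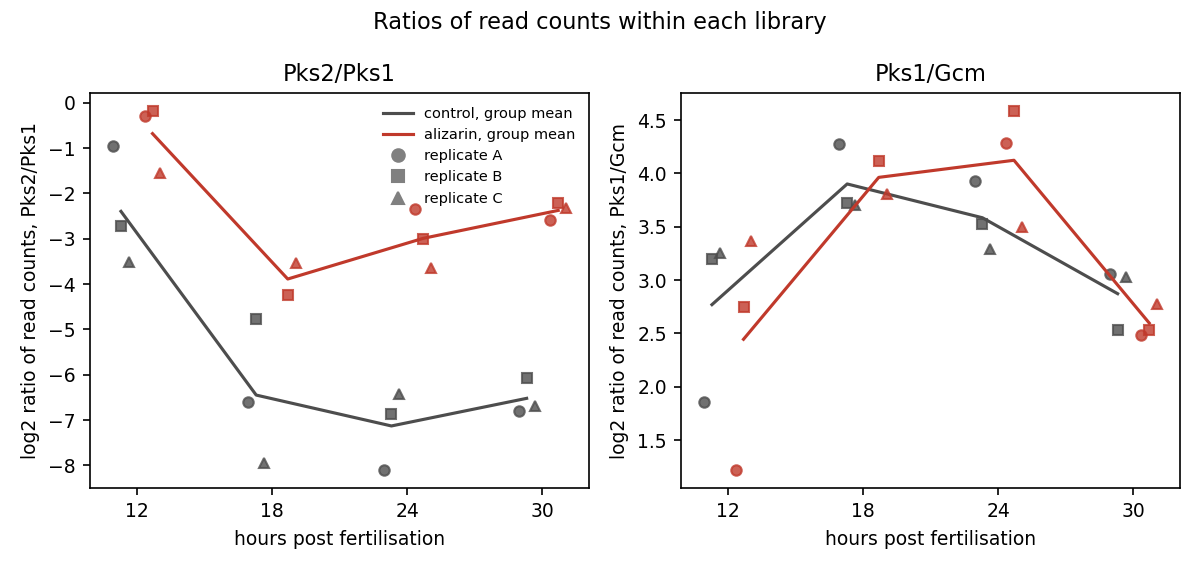
Log2 ratio of read counts within each library, Pks2 to Pks1 and Pks1 to Gcm, against hours post fertilisation; grey is control, red is alizarin, shapes are replicates and lines join group means. The Pks2 to Pks1 ratio of alizarin libraries lies above all controls from 18 hpf on, and the Pks1 to Gcm ratios of the arms lie among one another.

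Over time, the clearest step was in Pks2. From 12 to 18 hpf control Pks2 fell by 3.59 on the log2 scale (SE 0.51, edgeR adjusted p = 7.82e-05), 12.0-fold, where 14.9% of all genes passed. The call was kept without any 1 library, and without control replicate A of 12 hpf, the high one, Pks2 fell by 2.66. In alizarin embryos it fell by 2.08 (SE 0.56, adjusted p = 0.0194), where 10.7% of all genes passed, and the call was lost without alizarin replicate B or C of 18 hpf. The steps differed between the arms by 1.51 (SE 0.69, adjusted p = 0.963), or by 0.577 without control replicate A of 12 hpf and 2.14 without control replicate B of 18 hpf, a test that 0% of all genes passed with edgeR, 938 at an unadjusted p under 0.05, and 20 with DESeq2. Later Pks2 steps did not pass in controls (-0.44 to 24 hpf and -0.70 to 30 hpf) or in alizarin embryos (0.46 and -1.16).

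Pks1 fell from 24 to 30 hpf in alizarin embryos by 1.73 (SE 0.41, edgeR adjusted p = 0.0464), where 1.04% of all genes passed, and the call was lost in 14 of 23 fits without 1 library and with RLE scaling (-1.67, adjusted p = 0.0539). In controls the same step was -1.22 (SE 0.41, adjusted p = 0.183), where 0.928% of all genes passed. The difference between these steps was -0.51 (SE 0.57, unadjusted p = 0.379), a test that 0.0163% of all genes passed. From 18 to 24 hpf Pks1 changed by 0.15 in controls and -0.41 in alizarin embryos, with neither passing, where 4.98% and 0.423% of all genes passed. The 2 arms differed in that step for 0.00543% of all genes, none of them a member. No Gcm step passed in either arm, the values lying between -0.68 and 0.40.

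Ordered by group mean, Gcm was highest in controls of 12 hpf (158 ± 78.5 CPM) and of 24 hpf (156 ± 15.9 CPM) and lowest with alizarin at 30 hpf (42.5 ± 15.8 CPM). Neighbouring groups in this order overlapped except controls of 30 hpf (110 ± 8.43 CPM) and alizarin at 18 hpf (72.4 ± 10.1 CPM, n = 2). Pks1 ran from 1874 CPM in controls of 24 hpf to 256 ± 83.0 CPM with alizarin at 30 hpf, and every pair of neighbours in its order overlapped. Pks2 ran from 330.2 ± 65.8 CPM with alizarin at 12 hpf to 8.75 ± 1.26 CPM in controls of 30 hpf. Its 4 alizarin group means (330.2, 78.1, 108 and 48.2 CPM by age) were all above the control means of 18 hpf or later, which were 19.2, 14.2 and 8.75 CPM. Alizarin at 30 hpf did not overlap controls of 18 hpf. The share of all genes without overlap was not counted for groups of different ages.

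Alizarin libraries lay near younger controls on the component that followed age, so they were also set beside controls collected 6 hours earlier, where age and treatment differ together. Pks2 with alizarin at 24 hpf was higher than in controls of 18 hpf by 2.48 (SE 0.49, edgeR adjusted p = 0.0401), where 0.152% of all genes passed, and this call was kept in 11 of 23 fits without 1 library and lost with the replicate block (2.45, adjusted p = 0.0506). Pks1 in that comparison was at -0.998 (SE 0.40, adjusted p = 0.455) and Gcm at -1.19 (SE 0.52, adjusted p = 0.514), and without control replicate C of 18 hpf both were at -0.39. With alizarin at 30 hpf against controls of 24 hpf, where 5.45% of all genes passed, Pks1 fell by 2.87 (SE 0.43, adjusted p = 0.00207), a call kept in all 23 such fits. Gcm was at -1.87 (SE 0.53, adjusted p = 0.0430), a call kept in 11 of 23 fits and lost with RLE scaling (adjusted p = 0.0516) or without the filter on low counts (0.0521). Pks2 was higher by 1.76 (SE 0.48, adjusted p = 0.0366, kept in 17 of 23 fits). These comparisons share alizarin and control libraries with those at matched age, so their values are not independent of them.

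Enzymes beside Pks1 in pigment cells of S. purpuratus include flavin monooxygenases, which oxidise small molecules, and sulfotransferases, which add sulfate. A list of all IDs with symbols of flavin monooxygenases (Fmo), sulfotransferases (Sult), tyrosinase and dopachrome tautomerase, and macrophage migration inhibitory factors (Mif) held 63 IDs, of which 49 passed the filter. In the mean over times, where 5.04% of all genes passed, 5 fell, 0 rose and 44 did not pass with edgeR, and with DESeq2 7 were lower and 1 was higher. Their edgeR median log2 fold change was -0.37 beside -0.01 for all genes tested. At 24 hpf 1 fell (0.842% of all genes passed) and at 30 hpf 2 of 49 fell, near the 3.32% of all genes that passed. None passed at 12 or 18 hpf with edgeR, where 0.0977% and 0% of all genes passed. At these ages 13 and 5 had an unadjusted p under 0.05, beside 2966 and 1045 of all genes, and DESeq2 called 7 and 1. Of all genes DESeq2 called 698 at 12 hpf, 51 at 18 hpf and 1709 in the mean. Of the list, 47 IDs share their symbol with another, so reads of near-identical copies could be shared out among them, and each level is uncertain.

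The monooxygenase gene Fmo2_2 (L_var_23392) was at 267 ± 16.8 CPM in controls and 93.4 ± 8.67 CPM with alizarin at 24 hpf and fell by 1.51 (SE 0.33, edgeR adjusted p = 0.0318). At 30 hpf it was at 140.5 ± 24.1 and 60.3 ± 31.5 CPM and fell by 1.22 (SE 0.33, adjusted p = 0.0435). These calls were lost in 5 and 13 of 23 fits without 1 library, while that of its mean effect, -0.80 (SE 0.17, adjusted p = 0.00912), was kept in all 23. Fmo5_1 (L_var_22976), at 485 ± 215 and 169 ± 90.4 CPM at 12 hpf, had a mean effect of -0.87 (SE 0.24, adjusted p = 0.0357) that was lost in 14 of 23 such fits. A low gene, Fmo5_2 (L_var_23643), was at 12.9 ± 2.18 CPM in controls and 3.46 ± 0.81 CPM with alizarin at 30 hpf and fell by 1.89 there (SE 0.43, adjusted p = 0.0206), a call lost in 5 of 23.

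Among sulfotransferase genes, Sult1c (L_var_21195) fell by 1.35 in the mean over times (SE 0.31, edgeR adjusted p = 0.0138) and stood at 11.5 ± 2.06 and 4.42 ± 0.75 CPM at 24 hpf. Sult1c_1 (L_var_20487) had a mean effect of -3.17 (SE 0.66, adjusted p = 0.0104), but all 3 alizarin libraries of 12 hpf held 0 counts of it, so the size depends on the prior count and is no bound. At 30 hpf it was at 22.8 ± 12.1 and 12.4 ± 10.6 CPM. Sult1b1 (L_var_10043) was at -2.71 (SE 0.71, adjusted p = 0.0321), lost in 7 of 23 fits. The best expressed genes of the list did not pass: Sult1b1_1 (L_var_26890) was at -0.95 (SE 0.35), Sult1c_2 (L_var_21319) at -0.27 (SE 0.25), Mif7 (L_var_07336) at -0.51 (SE 0.32) and Mif5 (L_var_23486) at -0.62 (SE 0.27). At 30 hpf Sult1b1_1 stood at 3301 ± 443 CPM in controls and 2756 ± 759 CPM with alizarin, and the groups' values overlapped. The only other synthase of the Pks and fatty acid synthase families found by symbol, Fasn (L_var_17655), was at 0.33 (SE 0.27, adjusted p = 0.508).

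Regulators and signals placed upstream of or beside Gcm in sea urchin mesoderm, among them Delta, Notch, SuH and GataE, gave 19 IDs, of which 18 were tested. None passed for alizarin at any time, in the mean or between times with edgeR. Of all genes 0.0977%, 0%, 0.842% and 3.32% passed at 12, 18, 24 and 30 hpf, 5.04% in the mean and 0.505% between times. Few of 18 would pass at these shares. In the mean 2 had an unadjusted p under 0.05, beside 3911 of all 18419 genes. DESeq2 called 1 of the regulators at 24 hpf, beside 505 of all genes, and 0 otherwise. The median mean effect of the regulators was -0.06. FoxA, a forkhead factor of endoderm, was at -0.08 (SE 0.15), Otx, a homeobox factor, at -0.09 (SE 0.13), the zinc finger gene Z166 at -0.30 (SE 0.19) and Nodal, a ligand of the oral ectoderm, at -0.20 (SE 0.18). Delta (L_var_13663), the ligand that signals to Gcm-expressing cells, was at 0.04 (adjusted p = 0.917) and Notch (L_var_22864), its receptor, at -0.17 (adjusted p = 0.696).

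**Figure D4:**
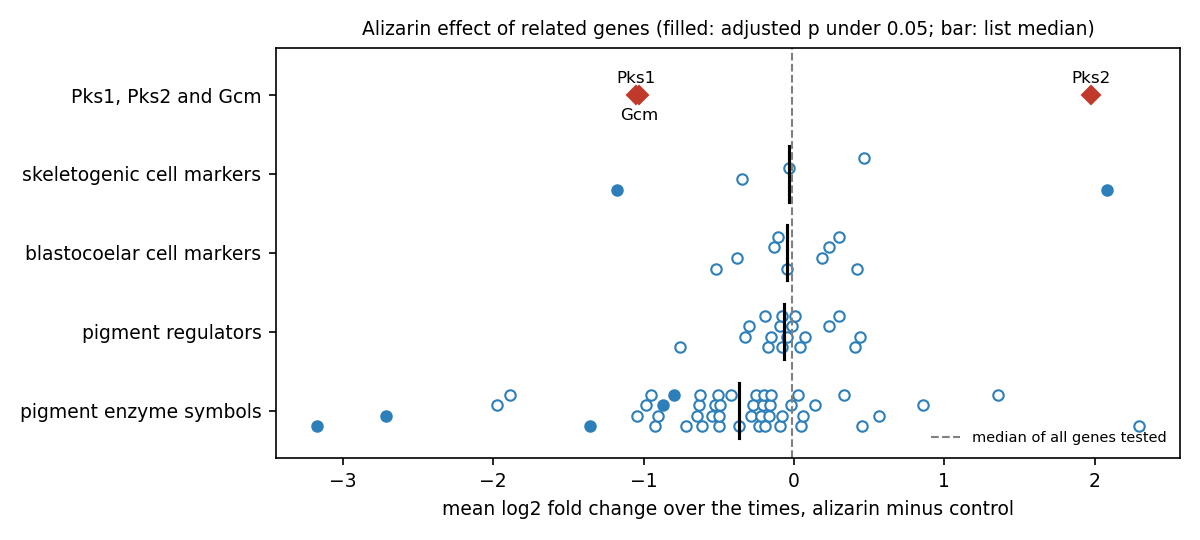
Mean log2 fold change over the 4 times, alizarin minus control, of Pks1, Pks2 and Gcm (diamonds) and of listed genes (circles, filled where adjusted p is under 0.05); black bars are list medians and the dashed line is the median of all genes tested. The pigment enzyme median is -0.37, and filled circles of that list all lie below 0.

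Markers of other cell types were measured beside these genes, and their part in the differences was not tested. Skeletogenic markers Alx1, Sm50, Msp130, Tbr and Vegfr10 were detected in every library (5 of 5), and none was at 0. Their summed level was 1382 to 2546 CPM in controls and 772 to 828 CPM with alizarin at 24 hpf, and 1228 to 1363 against 675 to 1263 CPM at 30 hpf. Tbr, a T-box factor of skeletogenic cells, was higher with alizarin than in controls at 24 hpf by 2.24 and at 30 hpf by 4.51 (edgeR adjusted p = 0.0182 and 7.72e-05). Sm50, a spicule matrix gene, fell at 24 hpf by 2.04 (adjusted p = 0.0271), and Alx1, Msp130 and Vegfr10 did not pass at any time with edgeR. DESeq2 called 3 of the 5 at 24 hpf, 1 higher and 2 lower, beside 505 of all genes. With edgeR 0.842% of all genes passed at 24 hpf and 3.32% at 30 hpf. Genes of this list that passed did not share 1 direction.

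Blastocoelar cell markers (9 of 9 IDs detected in every library) summed to 159 to 280.3 CPM in controls and 120.4 to 173 CPM with alizarin at 24 hpf. At 30 hpf they summed to 192 to 213 and 149 to 198 CPM. In the mean over times 0 of 9 passed (edgeR, 1 at an unadjusted p under 0.05, and 0 with DESeq2), beside 5.04% of all genes. By age, 7 effects were positive and 2 negative at 12 hpf, 6 and 3 at 18 hpf, 2 and 7 at 24 hpf, and 3 and 6 at 30 hpf. The edgeR test between times was passed by 1 of 9, beside 0.505% of all genes. At 12 hpf DESeq2 called 1 higher, beside 698 of all genes. At 30 hpf 5 of 9 had an unadjusted p under 0.05 (edgeR), beside 3071 of all genes. At 30 hpf, where 3.32% of all genes passed, 1 fell, a Prox1 gene (L_var_13096, mean 4.48 CPM, -2.15, edgeR adjusted p = 0.0270). The other Prox1 gene (L_var_13097, mean 44.0 CPM) was at -1.20 there and did not pass (edgeR adjusted p = 0.0597). DESeq2 called 2 of the list lower, beside 1190 of all genes called. Of 5 muscle and coelom marker IDs 3 were tested. MyoR2 (L_var_25173), a muscle factor, was at 24.7 ± 5.70 CPM in controls and 0.72 ± 0.53 CPM with alizarin at 24 hpf and fell by 5.02 there (edgeR adjusted p = 0.00727). FoxY (L_var_09987) was at 1.33 ± 0.55 CPM in controls and 20.2 ± 10.5 CPM with alizarin at 30 hpf, a difference of 3.92 (edgeR adjusted p = 0.00107). Its group means rose from 8.94 CPM in controls and 7.99 CPM with alizarin at 12 hpf to 67.2 and 60.4 CPM at 18 hpf. They were 26.2 and 47.4 CPM at 24 hpf in the same order, so its level fell in both arms only after 18 hpf. Of 3 apical and neural marker IDs 2 were higher with alizarin at 30 hpf, both with the symbol FoxQ2_1 (4.81 and 5.11, edgeR adjusted p = 0.000324 and 0.000239). Between 12 and 30 hpf their group means went from 297 to 2.94 and from 385 to 3.73 CPM in controls. With alizarin they went from 225 to 82.6 and from 405 to 129 CPM. Of 6 gut marker IDs 1, Cdx (L_var_01277), fell at 24 hpf (-3.51, edgeR adjusted p = 0.0332), where 0.842% of all genes passed. Of 6 ectoderm marker IDs tested 1, a Chordin gene (L_var_21973), was higher at 30 hpf (1.32, edgeR adjusted p = 0.0318). In the mean both Chordin genes were higher (0.65 and 0.83, edgeR adjusted p = 0.0288 and 0.00548). There DESeq2 called 2 ectoderm IDs higher and 2 lower. The part of these genes in the differences of Pks1, Pks2 and Gcm was not tested either. The defining pigment cell markers of these embryos are Gcm and Pks1 themselves, which stayed above 0 in all 23 libraries.

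By Pearson's r of log2 CPM over the 23 libraries among 15790 genes, the gene most like Pks1 was Acaca (L_var_26885, r = 0.88), acetyl-CoA carboxylase, which makes malonyl-CoA. It was followed by L_var_09880, which has no symbol (0.87), Cnot2 (0.87), Fmo2_2 (0.86) and Polr1b (0.82). By Spearman's rho Acaca ranked only 14th for Pks1 (0.76), and L_var_09880, Polr1b, Cnot2 and Fmo2_2 ranked 2nd, 3rd, 4th and 7th. Acaca had a mean alizarin effect of -0.99 (SE 0.16), given without a test because it was picked for a profile like that of Pks1 over the same libraries. For Gcm the 5 most alike were Sf3B2 (0.87), Smarcc2 (0.86), Cpsf6L (0.86), Med12L_3 (0.86) and Wbp11 (0.85), and for Pks2 PolppL_38 (0.90), KazL (0.89), Cenpj (0.89), Prickle (0.89) and L_var_08600 (0.88). Pks1 and Gcm correlated at 0.63, which placed Gcm 89th for Pks1 and Pks1 231st for Gcm, while Pks2 was at -0.36 with Pks1 and -0.12 with Gcm. Libraries share age and treatment, so these values describe shared profiles over the 8 groups.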

How the data were processed

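Whole embryos were profiled by mRNA sequencing, with RNA taken by TRIzol and libraries made with a DNBSEQ kit, per the labels' protocols. Reads were aligned with STAR 2.7.1a, per the submitters' processing notes. The genome build, annotation and counting tool are not given in the sources used here, and strand use in counting is not stated. Per the file headers, the authors deposited whole-number read counts for every gene in every library. The table's 109578 lines repeat a gene for each protein match and were reduced to 27232 IDs with 0 conflicts. One ID with unreadable counts was left out, giving 27231, of which 21650 carry an S. purpuratus symbol. 0 columns of values were left unmapped. No sequence or position is printed, since none was matched to these IDs.

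Genes were kept with filterByExpr (minimum count 10, 8 groups), leaving 18419. After TMM scaling, the 23 libraries entered 1 robust edgeR quasi-likelihood model with a mean for each of the 8 groups (15 residual degrees of freedom), with Benjamini-Hochberg adjustment over all genes and a threshold of 0.05. SE is the absolute log2 fold change over the root of F. Ratios used counts with 0.5 added. The fitting script was tested on simulated data. Of the members, Pks1 had the most counts and Pks2 in later controls the fewest, and the effect of depth on precision was not tested. Replicate libraries of a group differed beyond counting noise, and none was merged. The replicate letters paired the libraries only at 30 hpf, where same-letter libraries deviated together across genes (r = 0.503, 0.663 and 0.57), although the labels give no shared origin. The members and gene lists were chosen with earlier results of these data known. Named beside the members were every listed enzyme or regulator that passed a treatment contrast, otherwise up to 4 per list by mean level, and the 5 genes most like each member among those with a mean of at least 1 CPM. Other listed genes and marker genes in the text were chosen after their values were seen. One listed regulator is not reported here by name. Alternatives were RLE and upper-quartile scaling, no filter, a fit that was not robust, a replicate block, DESeq2, fits of single times and leaving out each library. The replicate block within a time, and ratios without the 12 or 18 hpf libraries, were chosen after seeing the data. Fits ran in edgeR 4.0.16 (limma 3.58.1) and DESeq2 1.42.0 under R 4.3.3. Other steps ran in Python 3.11.15: pandas 2.3.3 and numpy 2.4.6 for tables, scipy 1.17.1 for intervals, matplotlib 3.10.9 for figures.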

Additional observations from a re-analysis of the deposited data

Results flagged for a closer look

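Among the marker genes named beside Gcm, Pks1 and Pks2, the alizarin effect on Tbr (L_var_02106) differed between the 4 times by the edgeR F test (adjusted p = 0.01746). Its log2 fold changes were 0.38, 1.19, 2.24 and 4.51 at 12, 18, 24 and 30 hpf. The effect on a Prox1 gene (L_var_13096) also differed between the times (adjusted p = 0.04566), with 1.53, 0.82, -0.73 and -2.15 in the same order. So did that on FoxY (L_var_09987, adjusted p = 0.04297), with -0.15, -0.15, 0.86 and 3.92, and those on both FoxQ2_1 genes (adjusted p = 0.01625 each), with -0.40, 0.31, 0.58 and 4.81 (L_var_17031) and 0.07, 0.66, 0.84 and 5.11 (L_var_17029). Neither Gcm, Pks1 nor Pks2 passed that test, nor did the other and better expressed Prox1 gene (L_var_13097, edgeR adjusted p = 0.351). Of all genes 93 (0.505%) passed it, against 725 with DESeq2 and 18 to 355 without 1 library.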

How the results depend on the processing

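The mean effects of Pks1 and Pks2, the Pks2 call at 24 hpf and both ratios with Pks2 kept their direction and their call under every alternative run. Of the results of the 3 genes for treatment, 130 of 132 kept direction and side of the threshold under alternatives other than leaving out a library. The other 2 were Gcm at 30 hpf with only the groups of that time (-1.34) and with those groups and the replicate block (-1.40), which passed. With the block in the same 30 hpf fit, Pks1 was at -1.68 and Pks2 at 2.47, both still called, and over all times the block changed no call of the 3 genes for treatment.

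When 1 library was left out, Gcm ranged from -1.22 to 0.011 at 12 hpf, from -0.99 to 0.092 at 18 hpf and from -1.22 to -0.83 in the mean. Pks1 ranged from -0.89 to 0.025 at 18 hpf and from -1.90 to -1.43 at 30 hpf, and Pks2 from 2.35 to 2.63 at 30 hpf. Some steps with age that were not called kept their sign in all of these fits, and others changed it in 1 to 3 of them. Ranges are given for those that changed sign. For Gcm the ranges were -1.06 to 0.093 (alizarin, 12 to 18 hpf), -0.62 to 0.22 (alizarin, 24 to 30 hpf), -1.22 to 0.032 (control, 12 to 18 hpf), and -0.72 to 0.54 and -0.11 to 0.72 for the difference of the arms' first and last steps. For Pks1 they were -0.15 to 0.76 (control, 18 to 24 hpf) and -0.066 to 0.85 (difference of the first steps), and for Pks2 -0.76 to 0.19 (control, 18 to 24 hpf). The Pks1 to Gcm ratio, near 0, had the opposite sign with 1 added to each count (-0.00043), without the 18 hpf libraries (-0.0203) and in 12 of 23 fits without 1 library (-0.115 to 0.153). The cause was not tested.

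Counts of called genes moved most. At 12 hpf 18 genes were called, against 9 with RLE, 8 with upper-quartile scaling, 37 without the robust step, 97 with the replicate block, 698 with DESeq2, 0 in the fit of that time with or without the block, and 1 to 911 without 1 library. At 18 hpf 0 were called, against 51 with DESeq2, 71 with the block within the time and 0 to 1 without 1 library. At 24 hpf 155 were called, against 505 with DESeq2, 67 with the block within the time and 41 to 258 without 1 library. At 30 hpf 612 were called, against 1190 with DESeq2, 2001 in the fit of that time, 5115 with its block and 170 to 880 without 1 library. In the mean 928 were called, against 1709 with DESeq2 and 385 to 1416 without 1 library, and between times 93, against 725 and 18 to 355.

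Pks2 held 71 to 194 counts in controls of 24 and 30 hpf, and the effect of depth on its precision was not tested.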
